A study of Gallus gallus with 4 samples.

Results

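CR1 (chicken repeat 1) is the main LINE retrotransposon family of birds, and its avian subfamilies were followed here through the repeat-count tables of chick cranial neural folds. The subfamilies were taken as all repeat names that begin with CR1 and do not end in _Croc, _Crp or _AMi, which gave 27 of the 11336 names listed. Those excluded endings mark consensus sequences from crocodilians, and 11 CR1 names carry them. No file annotates the origin of a name. The word avian therefore rests on the names alone, and 2 of the 27, CR1_Amni-1 and CR1-1_Amn, carry an ending for amniotes as a whole. All 27 passed the low-count filter.

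Chick (Gallus gallus) embryos received a Cas9 construct by electroporation at Hamburger-Hamilton stage 4 (HH4), a gastrula stage. Guide constructs against Chiwi, a chicken PIWI protein, went to the right side and control guides to the left side, and both groups carry Cas9. Cranial neural folds, the ridges of the head neural plate, were dissected at early stage 9 (HH9-), and each library holds the pooled folds of several embryos. There were 2 Chiwi knockout and 2 control libraries of total RNA. Knockout and right side coincide in every library, so guide and side cannot be told apart. Electroporation leaves unmodified cells in the tissue, and in a bulk sample fewer cells of a type and less RNA per cell cannot be told apart either. The gene tables give Ensembl IDs, of which the reference table used here pairs 0 with a symbol, so neither the level of Chiwi nor any cell type marker was analysed here.

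LINEs such as CR1 copy themselves through RNA: an element is transcribed, and its own reverse transcriptase writes a new copy at the insertion site. Most CR1 copies in the chicken genome are cut short at their 5′ end and can no longer move. Many of them lie in introns and between genes, and RNA of such copies can come from a host transcript. PIWI proteins carry small RNAs (piRNAs) that match transposons, and in the germ line of animals they cleave transposon RNA and silence transposon loci. The comparison below asks whether CR1 RNA differed between Chiwi knockout and control tissue.

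The gene tables held 38783357 to 40352750 reads per library. The avian CR1 names took 392441 reads in knockout replicate 1, 455456 in knockout replicate 2, 460604 in control replicate 1 and 433974 in control replicate 2. That was 14.5% to 16.3% of all repeat reads, or 1.01 to 1.16 CR1 reads for every 100 gene reads. Levels below are CPM, the reads of a name for every 1000000 gene reads of the same library. A level sums all genomic copies of a name, and the tables hold no copy number or length, so the order of names is an order of reads and not of expression per copy or per base. Closely related names, such as CR1-Y2 and CR1-Y2_Aves, can also share reads.

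The abundance of the 27 names spanned more than 2 orders of magnitude, from CR1-C4 at 1480.1 ± 92.8 CPM to CR1AVI at 3.12 ± 0.697 CPM (SD, n = 4 libraries of both groups). The 3 highest names, CR1-C4, CR1-F2 and CR1-C, held 35.4% of all avian CR1 reads on average, and the 10 highest held 71.7%. The 24 names with a letter after the hyphen lay between 103 and 1480.1 CPM. Below CR1-F0, the lowest of these, the 3 names without a letter followed after a gap of 3.64-fold.

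**Figure D1:**
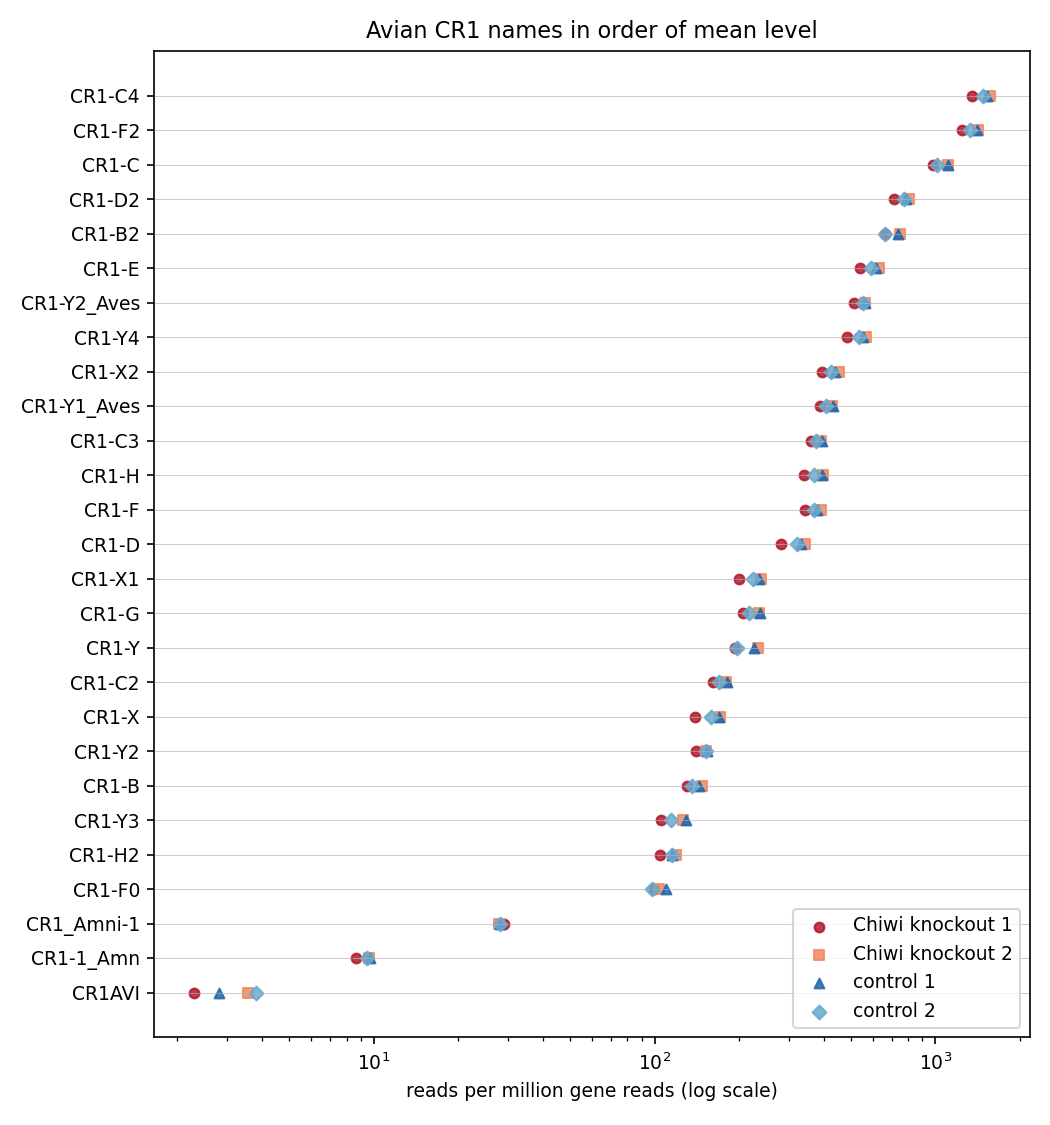
Level of each of the 27 avian CR1 names in each library, in CPM of gene reads on a log axis, ordered by the mean of the 4 libraries. The names run from 1480.1 CPM for CR1-C4 to 3.12 CPM for CR1AVI. The 4 libraries of a name lie close together compared with this full range, but 15 of the 26 pairs of neighbours overlap.

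By letter, the C group led, with 4 names and 28.1% of the family's reads. CR1-C4 stood at 1351 and 1565 CPM in knockout replicates 1 and 2, and at 1524 and 1479.6 CPM in control replicates 1 and 2. In the same order of libraries, CR1-C stood at 977, 1110.1, 1105 and 1014 CPM. CR1-C3 stood at 361, 393, 394 and 376 CPM. In these 3 names knockout replicate 1 was the lowest library, and the groups overlapped. CR1-C2 followed at 161 to 182 CPM. Within the letter the numbers therefore ran C4, C, C3, C2.

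The Y group came next by its sum, with 6 names and 18.0% of reads. Of its members CR1-Y2_Aves, a name with an ending for birds, stood at 512 and 561 CPM in knockout replicates 1 and 2 and at 564 and 552 CPM in control replicates 1 and 2. CR1-Y4 stood at 485 and 568 CPM in knockout and 551 and 535 CPM in control tissue. CR1-Y1_Aves stood at 387 and 430.2 CPM in knockout and 432 and 408 CPM in control tissue. All 3 were lowest in knockout replicate 1, and their groups overlapped. CR1-Y stood at 194 and 233 CPM in knockout and 226 and 197 CPM in control tissue. CR1-Y3 stood at 106 and 126 CPM in knockout and 129.8 and 115 CPM in control tissue. Both were low in knockout replicate 1 and control replicate 2 and higher in the other two libraries. CR1-Y2, without the ending for birds, stood at 141 to 154 CPM.

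The F group held 3 names and 16.6% of reads, most of them in a single name. CR1-F2 stood at 1248 and 1419 CPM in knockout and 1410.5 and 1325 CPM in control tissue, CR1-F at 345 to 392 CPM and CR1-F0 at 98.3 to 110.3 CPM. The D group (9.92% of reads) and the B group (7.66%) each held 2 names, and in both the name with the number stood above the name without. CR1-D2 stood at 713 and 805 CPM in knockout and 788 and 771 CPM in control tissue, against 282 to 343 CPM for CR1-D. CR1-B2 stood at 662 and 747 CPM in knockout and 737 and 661 CPM in control tissue, against 130.2 to 147 CPM for CR1-B. CR1-B2 was lowest in a control library, replicate 2, 1.29 CPM below knockout replicate 1. The number did not fix the order in every letter, since CR1-H stood above CR1-H2 and CR1-C above CR1-C3 and CR1-C2.

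The X group (7.40% of reads) ran CR1-X2, CR1-X1, CR1-X. CR1-X2 stood at 394 and 453 CPM in knockout and 440.2 and 426 CPM in control tissue, and CR1-X at 139.9 and 172 CPM in knockout and 170.1 and 158 CPM in control tissue. CR1-X1 lay between them at 199.7 to 238 CPM. CR1-E, alone in its letter (5.40%), stood at 539 and 629.9 CPM in knockout and 613 and 590.2 CPM in control tissue. In the H group (4.46%), CR1-H stood at 339 and 399 CPM in knockout and 395 and 371 CPM in control tissue, and CR1-H2 at 105 to 119 CPM. CR1-G, also alone in its letter (2.04%), stood at 207 to 238 CPM. Among the names of these letters, the lowest library was knockout replicate 1 in each case.

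The 3 names without a letter made up 0.372% of the family's reads. CR1_Amni-1, one of the names shared by amniotes, stood at 29.1 and 28.0 CPM in knockout and 28.2 and 28.1 CPM in control tissue, a spread of 1.78% of its mean. It was the one name with its highest library in knockout replicate 1. CR1-1_Amn stood at 8.61 to 9.69 CPM. CR1AVI stood at 2.29 and 3.55 CPM in knockout and 2.80 and 3.82 CPM in control tissue, from 89 to 153 reads. It had the fewest reads of the 27 names, and its groups overlapped.

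**Figure D2:**
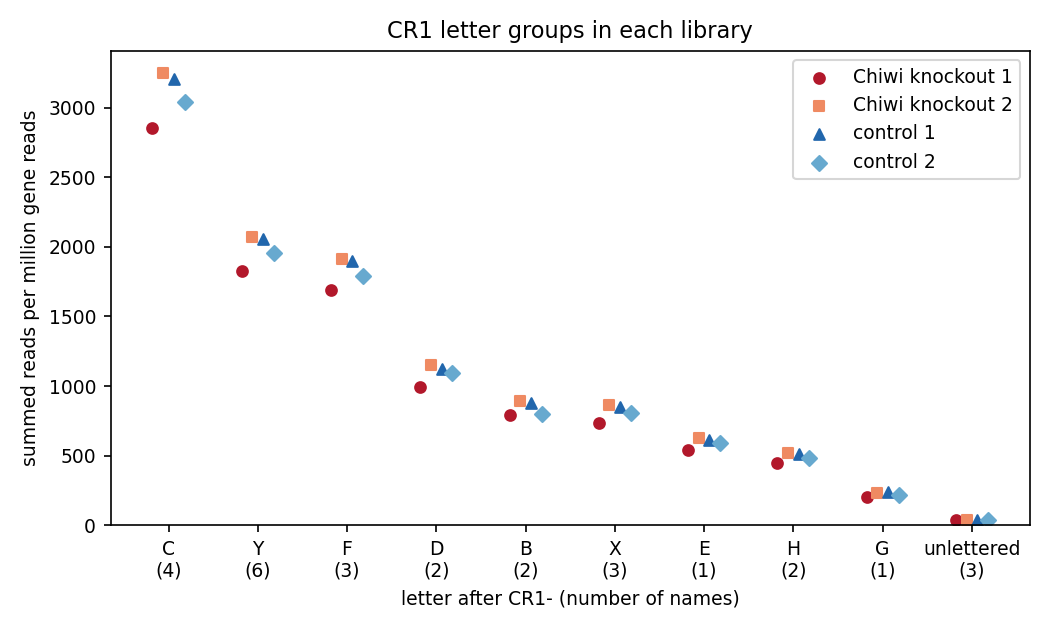
Summed level of the avian CR1 names of each letter in each library, in CPM of gene reads, with the number of names in brackets. The C group lies highest, at 2850.1 to 3248 CPM, and knockout replicate 1 is the lowest point in each lettered group.

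The order was stable across libraries. Of the 27 names, 16 held the same rank in all 4 libraries, and no name moved by more than 2 places. Of the 26 pairs of neighbours in the order, 20 kept their order in every library. CR1-C4 exceeded CR1-F2 by 0.13 ± 0.022 log2 units within a library (SD, n = 4), although their ranges over libraries overlapped, as they did for 15 of the 26 pairs. The 6 pairs that did not keep their order were CR1-Y2_Aves and CR1-Y4, CR1-C3 and CR1-H, CR1-H and CR1-F, CR1-X1 and CR1-G, CR1-X and CR1-Y2, and CR1-Y3 and CR1-H2. They were picked out after their values were seen, and their mean log2 differences, from 0.0020 to 0.092, were below or close to their SDs of 0.033 to 0.084. The letter groups kept their order too, except that X stood above B in control replicate 2, at 809 against 797 CPM.

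Knockout and control tissue did not differ detectably in any avian CR1 name. In the edgeR quasi-likelihood test over all 2803 repeat names tested, 0 of the 27 passed an adjusted p of 0.05, where 0% of all names did. The edgeR adjusted p was 0.9997 for every one of the 27. An unadjusted p under 0.05 was reached by 0 of the 27 and by 1.39% of all names. With DESeq2 or limma-voom no avian CR1 name passed either. No share over all names is given for those fits, so they do not set CR1 apart. The family sum averaged 10841 ± 1022 CPM over the knockout pools and 11119 ± 417 CPM over the control pools (SD, 2 libraries a group), a ratio of 0.975. The exact permutation p of this sum was 1 (two-sided), and 2 against 2 libraries cannot go below 0.33.

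The estimates were small and mostly just below 0. Of the 27 names, 24 had a negative log2 fold change, against 51.1% of all names tested, and the median was -0.041 against -0.0043 over all names. The lean was not particular to the avian names. Of the 11 CR1 names with crocodilian endings, 8 were negative, at a median of -0.10. With library size taken from all repeat reads instead, 27 of the 27 avian names were negative, and with the family's own reads 17 were. Such a change of scaling moves every repeat name, and no share over all names is given for either. The family's own reads also centre the 27 names near 0 by construction. CR1-C4 had -0.043 (SE 0.11, 95% interval -0.27 to 0.18), CR1-F2 -0.036 (SE 0.11) and CR1-C -0.022 (SE 0.11). The smallest unadjusted p on the negative side belonged to CR1AVI at -0.18 (SE 0.23), CR1-Y3 at -0.077 (SE 0.11) and CR1-X at -0.076 (SE 0.11). Positive values were found for CR1_Amni-1 (0.020, SE 0.12), CR1-Y (0.012, SE 0.11) and CR1-B2 (0.012, SE 0.11). The 95% intervals of the 24 lettered names stayed between -0.31 and 0.24, which is a range from 0.808-fold to 1.18-fold. These intervals measure the spread between pools and borrow it across repeat names. Borrowing adds no further pools, and most of the 27 names moved the same way between libraries. For a shift of the whole family the intervals can therefore be too narrow.

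**Figure D3:**
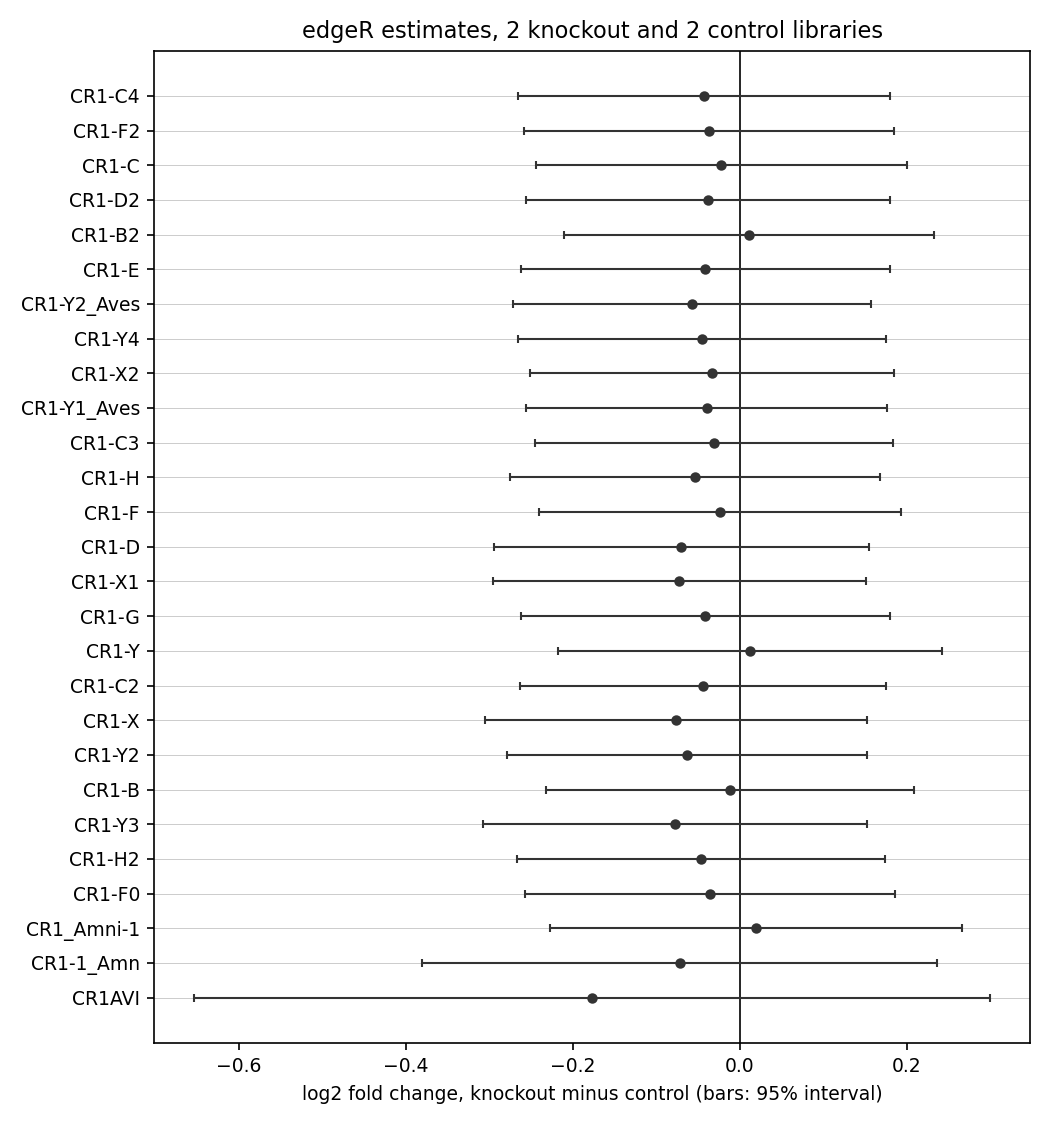
Log2 fold change of each avian CR1 name, knockout minus control, from the edgeR fit with its 95% interval (bars), 2 libraries per group. All 27 intervals include 0, and the widest is that of CR1AVI, from -0.65 to 0.30.

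The knockout libraries themselves stood farther apart than the groups did. Summed avian CR1 stood at 10119 CPM in knockout replicate 1 and 11564 CPM in knockout replicate 2, with control replicates 1 and 2 between them at 11414 and 10824 CPM. Knockout replicate 2 was thus 0.19 log2 units above knockout replicate 1, and control replicate 2 was 0.077 below control replicate 1. The medians of the same differences were 0.19 and -0.069 over the 27 names, and 0.076 and -0.076 over all repeat names tested. In size the control gap was thus close to that of all names, and the knockout gap was wider. In direction both gaps were more uniform among the 27, which were also far more abundant. Their median level was 320 CPM, against 2.05 CPM over all names tested. At low counts, counting error alone can turn a direction. The shares of direction over all names, here and elsewhere, therefore do not show the uniformity to be particular to CR1. Knockout replicate 2 lay above knockout replicate 1 for 26 of them, against 59.9% of all names. Control replicate 1 lay above control replicate 2 for 26, also against 59.9%. Knockout replicate 1 was the lowest of the 4 libraries for 24 of the 27 names, against 33.3% of all repeat names tested. Knockout replicate 2 was the highest for 16 of the 27, against 28.9% of all names.

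Between libraries that share a replicate number, the direction turned with the number. For number 1 the knockout library lay lower for 26 of the 27 names, at a median log2 difference of -0.17. Over all repeat names tested, 61.5% lay lower for number 1, at a median of -0.079. For number 2 it lay higher for 24 of the 27, at a median of 0.087. That median is close to the 0.075 over all names tested, of which 61.3% lay higher. Both together held for 24 of the 27 names, where 39.1% of all names showed this combination. The lower abundance of most other names limits this comparison too. CR1-C4 had -0.17 for number 1 and 0.081 for number 2, and CR1-F2 had -0.18 and 0.099. CR1-B2 had -0.16 and 0.18. The spread between numbers was wider for CR1-Y, at -0.22 and 0.24, and for CR1-Y3, at -0.29 and 0.14. It was also wider for CR1-X, at -0.28 and 0.12. It was narrow for CR1-Y2_Aves, at -0.14 and 0.023. CR1_Amni-1 was the one name that lay higher for number 1, at 0.046, and it had -0.0068 for number 2. CR1AVI lay lower for both numbers, at -0.29 and -0.10, and so did CR1-Y2, at -0.13 and -0.0020.

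**Figure D4:**
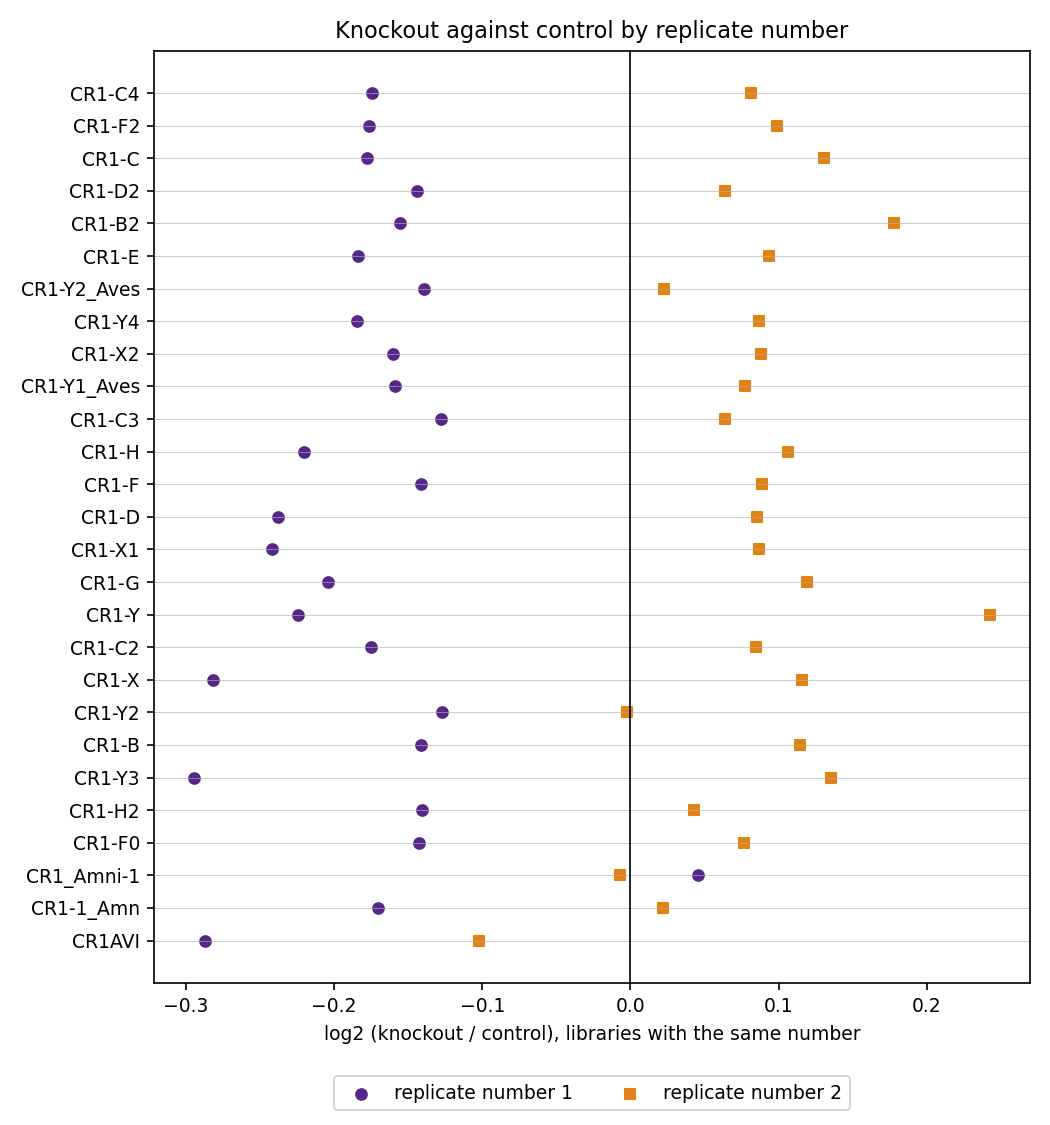
Log2 ratio of knockout to control for each avian CR1 name, between the libraries with replicate number 1 (circles) and those with number 2 (squares). The circles lie below 0 for 26 names, and the squares lie above 0 for 24.

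Without knockout replicate 1 the median log2 fold change of the 27 names was 0.053 and 3 names were negative. Without control replicate 1 it was -0.0066, with 15 names negative, so the direction rested on single pools. Leaving out a library can move all repeat names, and no share over all names is given for these fits. The groups did not overlap for 1 name only, CR1-Y2, singled out after its values were seen. Its knockout libraries stood at 141 and 152.06 CPM and its control libraries at 153.7 and 152.27 CPM, so that 0.22 CPM parted the groups. Over all names tested, 12.8% lay lower in knockout tissue without overlap and 12.9% lay higher, against 1 and 0 of the 27.

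Inside the family the proportions of the lettered names varied less than their levels. CR1-C4 took 13.4% of avian CR1 reads in knockout replicate 1 (exact 95% binomial interval 13.2% to 13.5%), 13.5% in knockout replicate 2, 13.4% in control replicate 1 and 13.7% in control replicate 2. These intervals cover counting error only. CR1-B2 took 6.54% and 6.46% in knockout and 6.46% and 6.10% in control tissue, and control replicate 2 was the low one. The C group as a whole held 28.07% to 28.17% in the 4 libraries. Over the 24 lettered names, the coefficient of variation across libraries was 0.431% to 4.72% for the share of family reads, against 4.01% to 9.43% for the level. Among the rare names without a letter, the share of CR1_Amni-1 varied by 7.87%, more than its level. The share of CR1AVI varied by 20.4% and its level by 22.4%. Measured relative to the family sum, 0 of the 27 names passed the edgeR test (adjusted p = 0.9995), and the log2 fold change was -0.0074 for CR1-C4, 0.050 for CR1-B2 and 0.048 for CR1-Y. This scaling centres the names near 0 by construction, and the share of all names that passed under it is not given.

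The CR1 names with crocodilian endings shared the low value of knockout replicate 1, which was the lowest library for 9 of the 11. Their 11 names summed to 416 and 459.8 CPM in knockout and to 469 and 466 CPM in control tissue. The avian sum was 24.3 and 25.2 times this in knockout and 24.3 and 23.2 times in control tissue, a log2 difference of 0.056 (exact permutation p = 0.667, two-sided). For number 2 the crocodilian sum lay lower in the knockout library by 0.020 log2 units, where the avian sum lay higher by 0.095. The other LINE names, L2 and X_LINE elements, stood at 124 and 127 CPM in knockout and 126 and 127 CPM in control tissue. Simple repeats, the most numerous names, stood at 34855 and 35713 CPM in knockout and 35574 and 34586 CPM in control tissue. The gap between the knockout libraries was 0.19 log2 units for avian CR1, 0.14 for the crocodilian names, 0.035 for other LINEs, 0.035 for simple repeats and 0.081 for the sum of all names other than avian CR1. Sat-CR1_GG, a satellite that contains CR1 sequence, had 2.27 and 2.97 CPM in knockout and 2.95 and 2.39 CPM in control tissue, a gap of 0.39 log2 units between the knockout libraries at a low count. The part that these differences between pools have in the CR1 values was not tested.

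**Figure D5:**
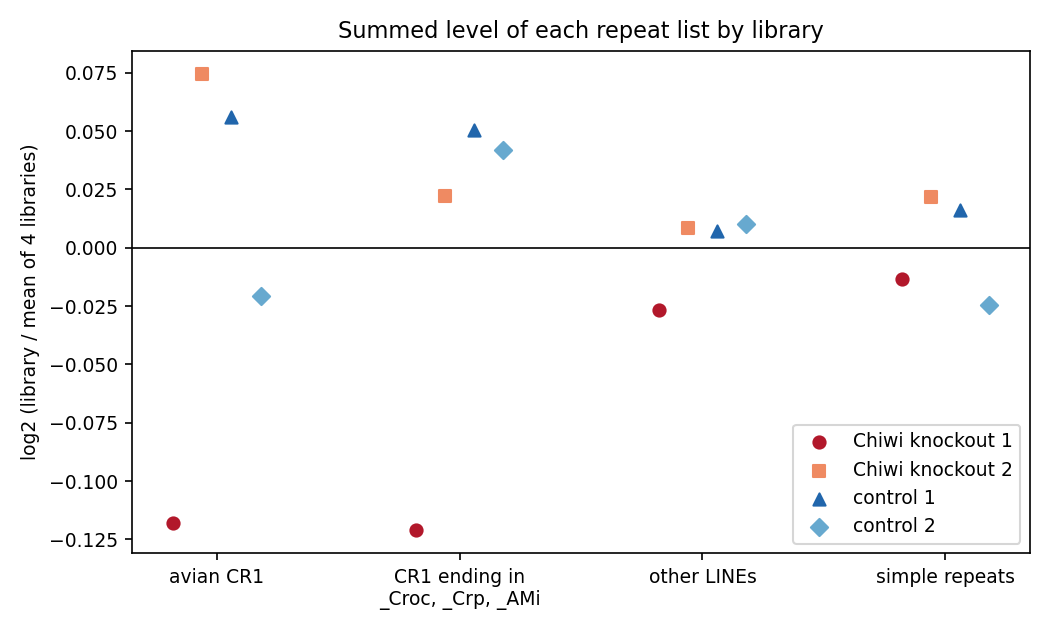
Summed level of 4 lists of repeat names in each library, as the log2 ratio to the mean of the 4 libraries. Knockout replicate 1 lies low for both CR1 lists and much closer to the other libraries for other LINEs and simple repeats.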

How the data were processed

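RNA-seq of pooled chick cranial neural folds gave 2 Chiwi knockout and 2 control libraries. The authors deposited, per library, raw read counts per Ensembl gene ID (24356 IDs) and per repeat name (11336 names). The submitters' processing notes name Bowtie2, featureCounts, DESeq2 and galGal6. Versions, strandedness and the handling of multi-mapping reads, which could be dropped or split between related CR1 names, are not given in the sources.

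Counts were tested with edgeR 4.0.16 in R 4.3.3 (glmQLFit, glmQLFTest, group as the only term) on all repeat names kept by filterByExpr (minimum count 10, minimum total 15). Library size was the summed gene reads, with no further factor. P-values were Benjamini-Hochberg adjusted over 2803 names, with a threshold of 0.05. Each SE is the log2 fold change over the root of F. Alternatives used DESeq2 1.42.0, limma 3.58.1, other scalings and filters, a replicate block, other member lists, and each library left out. The script was tested on simulated counts. The changes put in were larger than the estimates here, and no whole library was shifted, so that test does not bear on differences this small.

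Per-library values were given for the 12 most abundant names and the 3 smallest unadjusted p per direction, and the other names by their range. CR1-Y2 was outside this rule, and its library values were added because its groups did not overlap. Members and lists were chosen with earlier results of these data known. Libraries of a group differed beyond counting error. Over genes, chi-square per degree of freedom was 17.9 for the knockout pair and 18.7 for the control pair. Over the avian CR1 names, scaled by the family's own reads, it was 6.95 and 8.39. That scaling takes out any shift of the whole family, such as the 0.19 log2 units between the knockout libraries. These 2 values cover only proportions inside the family and cannot be set beside those of genes. Nothing says that a group's pools came from separate embryos, and p-values then measure only the spread between these libraries, which may be technical.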

Additional observations from a re-analysis of the deposited data

How the results depend on the processing

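The call of 0 of 27 names past the threshold was the same under the other scalings, tests and filters and both shorter member lists. The share of all names that passed is given for the main fit only, where it was 0%. The 0 of 27 therefore does not set the CR1 names apart. The median log2 fold change kept its sign, at -0.039 to -0.076, under the other scalings, tests and filters. Scaling by the family's own reads, which centres the names near 0 by construction, gave -0.0057 and says nothing of direction. With a replicate block the median was -0.045, and 0 of the 27 names passed, with no share over all names given. Nothing in the labels ties a number to one set of embryos. Deviations of same-numbered libraries from their group means correlated at 0.423 across genes and 0.219 across repeat names, which with 2 numbers does not settle the pairing. A correlation across names leaves out the shift common to them. From number 1 to 2 the median shift ran opposite ways in knockout and control, at 0.076 and -0.076 over all repeat names. Over the 27 names it was 0.19 and -0.069. Leaving out 1 library moved the median from -0.13 to 0.053, the number of negative names from 3 to 26, and the log2 ratio of the family sum from -0.14 to 0.057. No median or share over all names is given beside these. The sum turned without knockout replicate 1, and without control replicate 1 it was 0.0023. The ratio to the crocodilian names kept its sign, at 0.022 to 0.091. The family sum under its own scaling is fixed and was not compared.

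Each of the 17 log2 fold changes given above or computed for the most abundant names turned for at least 1 library left out, and the cause was not tested. The ranges were -0.15 to 0.059 for CR1-C4, -0.13 to 0.053 for CR1-F2, -0.12 to 0.067 for CR1-C, -0.094 to 0.029 for CR1-C3, -0.13 to 0.047 for CR1-D2, -0.079 to 0.096 for CR1-B2 and -0.16 to 0.067 for CR1-E. They were -0.12 to 0.0079 for CR1-Y2_Aves, -0.16 to 0.064 for CR1-Y4, -0.12 to 0.035 for CR1-Y1_Aves, -0.13 to 0.14 for CR1-Y and -0.21 to 0.042 for CR1-Y3. For CR1-X2 the range was -0.14 to 0.065, for CR1-X -0.23 to 0.063, for CR1-H -0.18 to 0.060, for CR1_Amni-1 -0.0085 to 0.047 and for CR1AVI -0.53 to 0.10. In these fits a lone library is assumed to vary like the others. Scaled by the repeat table, CR1-B2 was -0.023, CR1-Y -0.024 and CR1_Amni-1 -0.011. Relative to the family's reads, CR1-F2 was 0.00062, CR1-C 0.016, CR1-X2 0.0031 and CR1-C3 0.0076.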
